A study of Rattus norvegicus with 48 samples.

Results

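Plasma miRNA at week 8 was compared with week 4 after surgery in the same 12 rats, each with a defect drilled into the skull roof (calvaria). The comparison used the 24 samples of these 2 time points out of 48 in the whole series, chosen by the time point in the sample label and paired by animal. The 12 samples from before surgery (week 0) and the 12 from week 1 did not enter the main tests and are given as levels. They enter only an alternative fit over all 48 samples. No batch is named in the labels, and week 8 stood apart from the other 3 time points in its spike-in reads (given below), so that week 8 and a batch that coincides with it cannot be told apart.

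The animals were male rats, 12 weeks old at surgery, called Sprague-Dawley in the methods of the study and Wistar elsewhere in it. They carried 1 of 4 treatments: an empty defect, a collagen hydroxyapatite scaffold alone, the scaffold with plasmid DNA for BMP2 and miR-590-5p, or the scaffold with extracellular vesicles of mesenchymal stromal cells. The treatment of each rat was not mapped here, so every mean runs over a mixture of treatments. By microcomputed tomography the study had picked 6 of the rats as strong and 6 as weak regenerators. Blood came from the tail vein, and small RNA of the plasma was sequenced and counted per mature miRNA. Animals without surgery were not analysed here, and age and repeated blood sampling ran along with healing time, so that neither can be told apart from it.

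MicroRNAs are short RNAs cut from a hairpin precursor, whose 5' and 3' sides (the 5p and 3p arms) can each yield a mature miRNA that guides silencing of messenger RNAs through its seed, the bases just after the first. The arms of a hairpin are made from the same transcript, and families of miRNAs share a seed while being made from separate genes. In plasma, miRNAs are carried in vesicles, lipoproteins and protein complexes, and blood cells, the vessel wall and the liver are known large sources. Levels below are reads for each 1000000 miRNA reads of the sample (RPM), so they are shares of the library, and a fall in a share cannot be told apart from a rise of other miRNAs.

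The comparison turned on the following sequences, taken from RefSeq (build GRCr8), written 5' to 3' with the seed (bases 2 to 8) in capitals. The first set holds miRNAs with the largest rises from week 4 to week 8.
miR-34b-5p: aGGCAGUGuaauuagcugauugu
miR-181c-5p: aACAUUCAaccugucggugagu
miR-92a-1-5p: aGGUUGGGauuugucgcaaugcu
miR-361-3p: cCCCCAGGugugauucugauucgu
miR-21-3p: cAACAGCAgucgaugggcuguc
miR-194-3p: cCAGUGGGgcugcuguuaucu
miR-30c-2-3p: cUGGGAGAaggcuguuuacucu
The second set holds miRNAs with the largest falls.
miR-199a-3p: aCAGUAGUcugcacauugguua
miR-3559-5p: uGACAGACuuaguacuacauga
miR-361-5p: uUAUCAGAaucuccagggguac
let-7g-5p: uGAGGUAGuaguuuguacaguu
miR-146a-5p: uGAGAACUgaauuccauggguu
miR-434-3p: uUUGAACCaucacucgacuccu
miR-214-3p: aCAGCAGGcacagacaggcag
The third set holds further arms of hairpins whose arms moved apart.
miR-199a-5p: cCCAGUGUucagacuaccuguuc
miR-532-5p: cAUGCCUUgaguguaggacugu
miR-532-3p: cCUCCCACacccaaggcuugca
miR-142-5p: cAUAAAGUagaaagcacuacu
miR-142-3p: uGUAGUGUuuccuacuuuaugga
miR-99b-5p: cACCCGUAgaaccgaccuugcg
miR-99b-3p: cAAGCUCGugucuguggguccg
The last set holds relatives that share a seed with a listed miRNA or with each other.
miR-34a-5p: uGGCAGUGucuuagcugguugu
miR-34c-5p: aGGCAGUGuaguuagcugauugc
miR-449a-5p: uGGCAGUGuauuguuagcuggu
let-7i-5p: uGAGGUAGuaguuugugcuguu
let-7a-5p: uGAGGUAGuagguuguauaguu
miR-29a-3p: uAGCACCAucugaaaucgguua
miR-29c-3p: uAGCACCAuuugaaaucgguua

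In RefSeq GRCr8, both arms of miR-361 were on the minus strand of chromosome X, the 5p arm at chrX:82438506-82438527 and the 3p arm at chrX:82438466-82438489, inside the span of the protein-coding gene Chm. miR-34b-5p (chr8:60306657-60306679, minus strand) and miR-34c-5p (chr8:60306133-60306155, minus strand) were neighbours inside the span of Hoatz. miR-199a-3p (chr13:77116294-77116315, plus strand) and miR-214-3p (chr13:77121713-77121733, plus strand) were inside the span of Dnm3, the arms of miR-532 inside that of Clcn5 on chromosome X, and those of miR-142 inside that of Tspoap1 on chromosome 10. let-7g-5p (chr8:115701026-115701047, plus strand) was inside the span of Wdr82, and miR-181c-5p was at chr19:40888314-40888335 on the plus strand. Of the 645 miRNAs listed in the counts, 582 had a single mature sequence in the RefSeq table, and of the 308 with a mean of at least 10 RPM over the 24 samples, 278 had one.

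Circulating miRNA differed widely between week 4 and week 8. In the paired test across all miRNAs (edgeR's quasi-likelihood test with the rat as a block, Benjamini-Hochberg adjusted false discovery rate, FDR, under 0.05), 199 of 495 tested miRNAs were called, which is 40.2%. Of these, 77 rose (15.6% of those tested) and 122 fell (24.6%), and 95 of the calls were larger than 2-fold, 30 of them higher and 65 lower. Among the 308 abundant miRNAs (mean of at least 10 RPM), 174 were called, or 56.5%, with 73 higher, 101 lower and 134 not called. The median change over the abundant miRNAs was -0.07 on the log2 scale, from -2.17 to 2.54. The 12 week 8 values lay all above the 12 week 4 values for 10 tested miRNAs (2.02%) and all below them for 23 (4.65%). Of the called miRNAs, 24 were higher in 12 of 12 rats and 44 were lower in 12 of 12 rats.

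**Figure D1:**
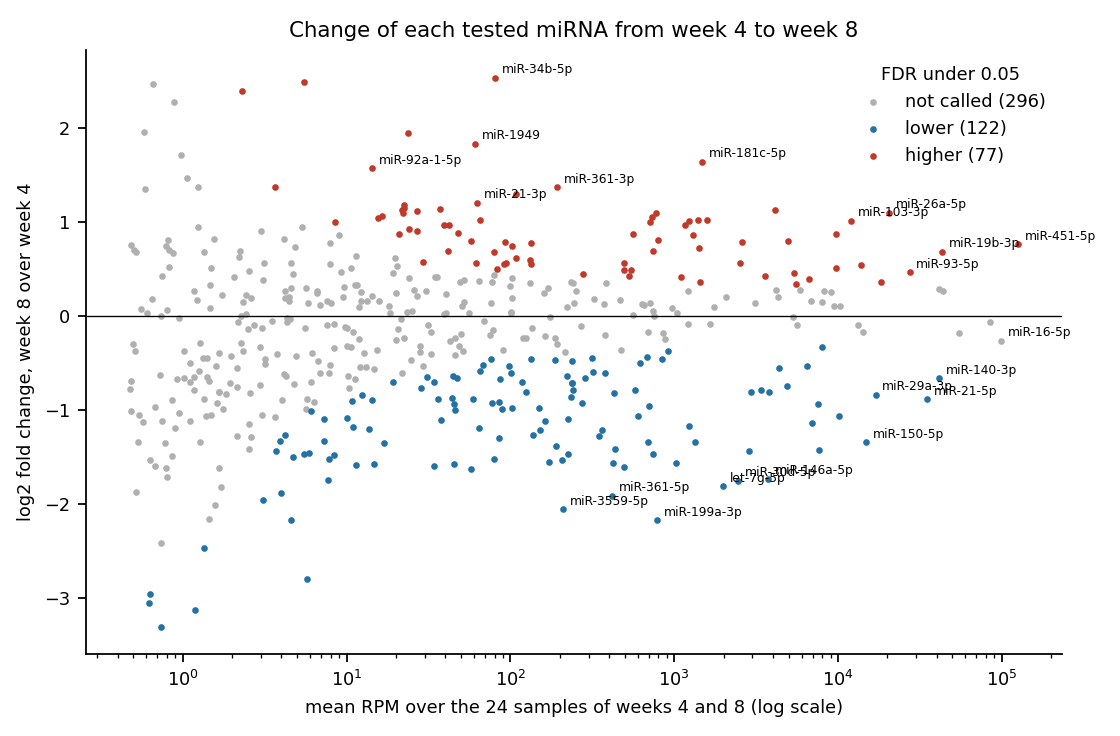
Each point is a tested miRNA, with the mean RPM over the 24 samples on the x axis (log scale) and the log2 fold change of week 8 over week 4 on the y axis. Red points were called higher (77), blue points lower (122) and grey points were not called (296); calls run over the whole range of levels up to miR-451-5p, the most abundant.

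The largest rise was that of miR-34b-5p, a member of the miR-34 family, which is known as a target of p53. At week 4 it was between 7.59 and 61.1 RPM with a median of 22.9, and at week 8 between 57.7 and 258 RPM with a median of 127. The ranges met only at their ends, and the level was higher in 12 of 12 rats. The fitted change was 5.81-fold (log2 2.54 ± 0.21 SE, FDR = 6.77e-27). SE and FDR values here and below come from a fit that shares the spread strongly between miRNAs. They can therefore understate how much the changes of a single miRNA varied between rats. miR-181c-5p, of a family known for its part in lymphocyte signalling, was at 406 to 1240 RPM (median 696) at week 4 and at 1600 to 2940 RPM (median 2202) at week 8. No week 8 value reached down to the week 4 range. The change was 3.13-fold (log2 1.64 ± 0.15 SE, FDR = 2.2e-22).

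miR-361-3p rose from a median of 113 RPM (69.4 to 159) to 266 RPM (186 to 384), again with no overlap and in 12 of 12 rats (2.59-fold, FDR = 4.26e-13). miR-1949 rose from a median of 21.1 RPM (8.12 to 123) to 90.1 RPM (48.8 to 118) in 10 of 12 rats (3.56-fold, FDR = 3.97e-14). One week 4 library, at 123 RPM, lay above all week 8 values of miR-1949. miR-92a-1-5p, the arm opposite to the abundant miR-92a-3p, rose from a median of 5.41 RPM (2.62 to 20.4) to 24.7 RPM, with week 8 values from 0 to 45.3 RPM (2.98-fold, FDR = 6.66e-06). One week 8 library held no read of it, and 10 of 12 rats had the higher level at week 8.

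Further rises were in miRNAs of low level. miR-21-3p, the passenger strand of miR-21, rose from a median of 34.8 to 82.5 RPM (2.30-fold, FDR = 9.42e-08, 11 of 12 rats). miR-194-3p rose from a median of 11.3 to 25.6 RPM (2.26-fold, FDR = 5.1e-05), and miR-30c-2-3p from 13.5 to 28.4 RPM (2.21-fold, FDR = 6.77e-05). These 3 miRNAs overlapped between the weeks. let-7f-2-3p rose from a median of 19.9 to 45.8 RPM (2.21-fold, FDR = 4.06e-06), miR-99a-3p from 11.5 to 27.2 RPM (2.18-fold, FDR = 8.92e-05), and miR-331-3p from 17.8 to 34.6 RPM (2.18-fold, FDR = 2.62e-05). miR-145-5p, abundant in smooth muscle, was far higher in level, at a median of 2370 RPM (1334 to 3364) at week 4 and 4365 RPM (2676 to 18735) at week 8. It rose 2.18-fold in 11 of 12 rats (FDR = 2.27e-12), and one week 8 library lay well above the rest.

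The largest fall was that of miR-199a-3p, known from fibroblasts and other mesenchymal cells and also carried by platelets. It was between 561 and 3898 RPM (median 1036) at week 4 and between 122 and 473 RPM (median 240.2) at week 8. Every week 8 value lay below every week 4 value. The change was 4.51-fold lower (log2 -2.17 ± 0.17 SE, FDR = 2.4e-30). Reads of the same mature sequence from other genes cannot be told apart from it. miR-3559-5p, on chromosome X, fell from a median of 306 RPM (184 to 546) to 74.9 RPM (30.5 to 134), without overlap (4.17-fold lower, FDR = 6.09e-24).

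miR-361-5p, the partner of the rising miR-361-3p, fell from a median of 657 RPM (384 to 913) to 180.3 RPM (64.6 to 342) in 12 of 12 rats (3.77-fold lower, FDR = 6.99e-24). let-7g-5p, of the let-7 family of regulators of growth and differentiation, fell from a median of 2475 RPM (1515 to 7824) to 825 RPM (519 to 1080). The weeks did not overlap for either of them, and the fall of let-7g-5p was 3.51-fold (FDR = 1.07e-25). miR-30d-5p fell from a median of 3601 to 998 RPM (3.38-fold lower, FDR = 1.74e-25). miR-146a-5p, a brake on inflammatory signalling in immune cells, fell from a median of 5225 RPM (2713 to 10755) to 1639 RPM (893 to 3561), 3.33-fold lower (FDR = 5.66e-25). Both were lower in 12 of 12 rats with ranges that overlapped at their ends.

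Of the remaining large falls, 4 were in miRNAs of low level. miR-434-3p, from the imprinted Dlk1-Dio3 region, fell from a median of 89.0 to 25.1 RPM (3.09-fold lower, FDR = 2.49e-12), miR-532-3p from 48.3 to 15.6 RPM (3.02-fold lower, FDR = 1.06e-09) and miR-872-3p from 70.4 to 21.1 RPM (2.98-fold lower, FDR = 8.5e-11), each in 12 of 12 rats. miR-130b-5p fell from a median of 15.7 to 5.07 RPM in 11 of 12 rats (3.01-fold lower, FDR = 1.44e-05). miR-214-3p, made from the same region as miR-199a, fell from a median of 679 RPM (405 to 1238) to 199 RPM (105 to 493), 3.05-fold lower (FDR = 5.96e-19). miR-122-5p, the main miRNA of hepatocytes, fell from a median of 1388 RPM (431 to 3713) to 435 RPM (121 to 848) in 11 of 12 rats, 2.97-fold lower (FDR = 1.89e-17). Its log2 change in single rats ran from -3.69 to 0.44, a wide spread that this FDR does not reflect.

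Levels before surgery and at week 1 were set beside those of weeks 4 and 8 as a description. The week 8 median lay above the medians of weeks 0, 1 and 4 for 12 of the 12 largest rises, and below all of them for 12 of the 12 largest falls. miR-181c-5p, for example, had medians of 685 RPM at week 0 and 726 RPM at week 1, and miR-361-5p of 737 and 549.6 RPM. miR-199a-3p was at a median of 1539 RPM at week 0 and 839.9 RPM at week 1. Among all abundant called miRNAs, the week 8 median was the highest of the 4 time points for 67 of 73 that rose and the lowest for 98 of 101 that fell. The order against week 4 largely follows from how these miRNAs were chosen. The same week 8 values are used against weeks 0 and 1, so these counts are no separate support.

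**Figure D2:**
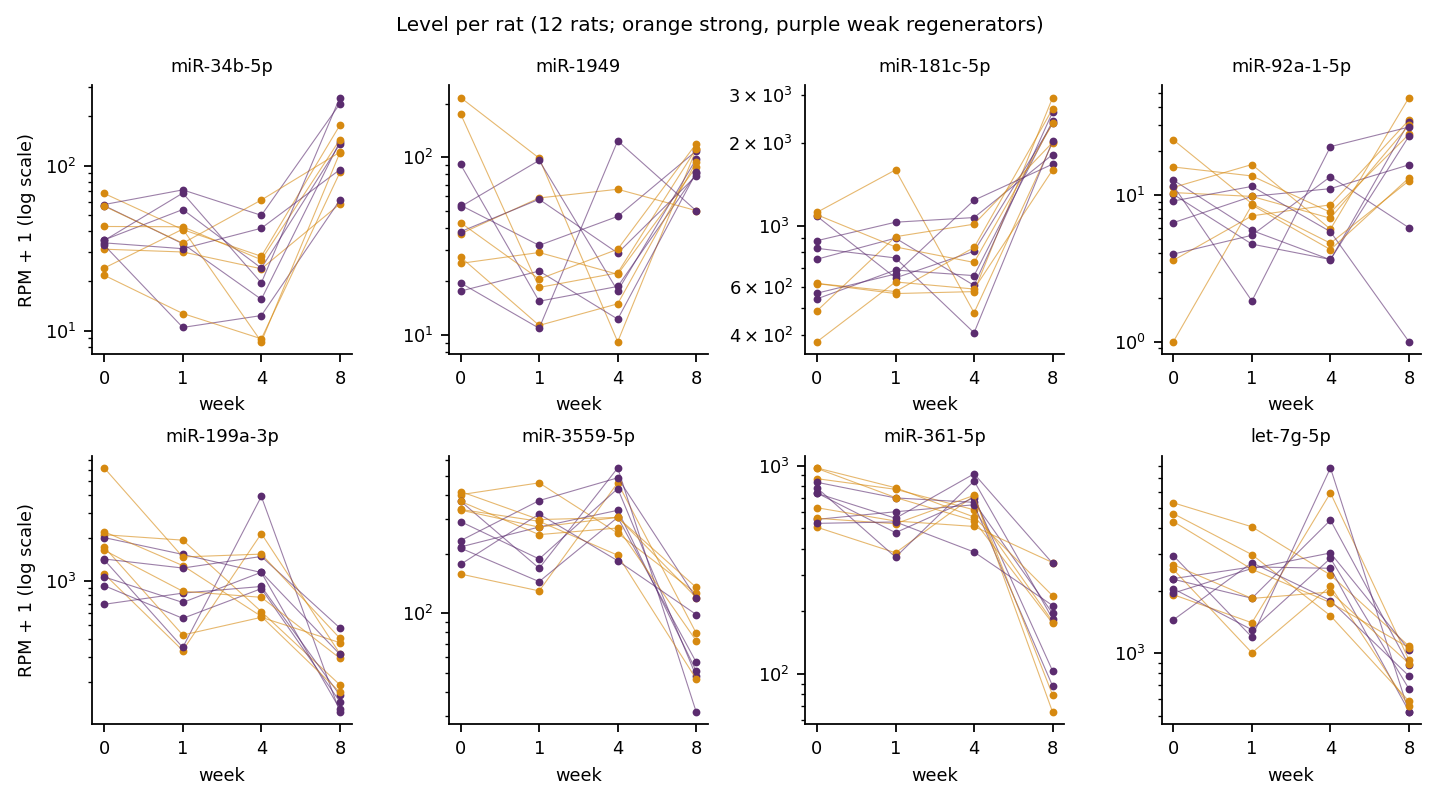
Level of the 4 largest rises (upper row) and the 4 largest falls (lower row) in each of 12 rats at weeks 0, 1, 4 and 8, as RPM + 1 on a log axis, with 1 line per rat (orange strong, purple weak regenerators). In each panel the week 8 median lies beyond the medians of weeks 0, 1 and 4, at 127 RPM for miR-34b-5p and 240.2 RPM for miR-199a-3p. Single rats differ from this, as for miR-1949, whose week 0 levels in rats 5 and 21 (216 and 174 RPM) lie above all its week 8 values.

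The libraries of week 8 differed from those of week 4 in measures that do not rest on single miRNAs. UniSp2, a synthetic RNA added at extraction, gave between 25.9 and 60.4 reads for each 1000 miRNA reads at week 4 (median 41.8) and between 91.1 and 143.9 at week 8 (median 120.2), in 12 of 12 rats higher and without overlap. The ratio was 2.96-fold (exact paired permutation test over all sign changes, two-sided p = 0.000488, the smallest it can give, or 0.00244 adjusted over 5 tests). At weeks 0 and 1 the medians were 34.0 and 39.4. Total miRNA reads were between 489502 and 1514610 at week 4 (median 964583) and between 393259 and 990333 at week 8 (median 609384), lower in 9 of 12 rats (exact permutation p = 0.0249, adjusted 0.0311).

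The number of miRNAs with at least 1 read had a median of 468 at week 4 (435 to 489) and of 429 at week 8 (391 to 448), lower in 11 of 12 rats (mean difference -37.9 ± 29.2 SD, exact permutation p = 0.000977, adjusted 0.00244). With each library thinned to 393259 reads the mean difference was -19.9 (exact permutation p = 0.00146), again lower in 11 of 12 rats. The 10 most abundant miRNAs held a median of 58.0% of the reads at week 4 (50.1 to 69.2%) and 60.3% at week 8 (54.7 to 66.2%), a mean difference of 2.59 percentage points that did not pass the test (exact permutation p = 0.103). Scaled to UniSp2 instead of to the bulk of miRNAs, the median change of the abundant miRNAs was -1.66 rather than -0.07 on the log2 scale, and 71 of the 77 rises had a negative change. The changes given here are therefore relative to the other miRNAs of the sample, and the part of extraction, input or library preparation in them was not tested.

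**Figure D3:**
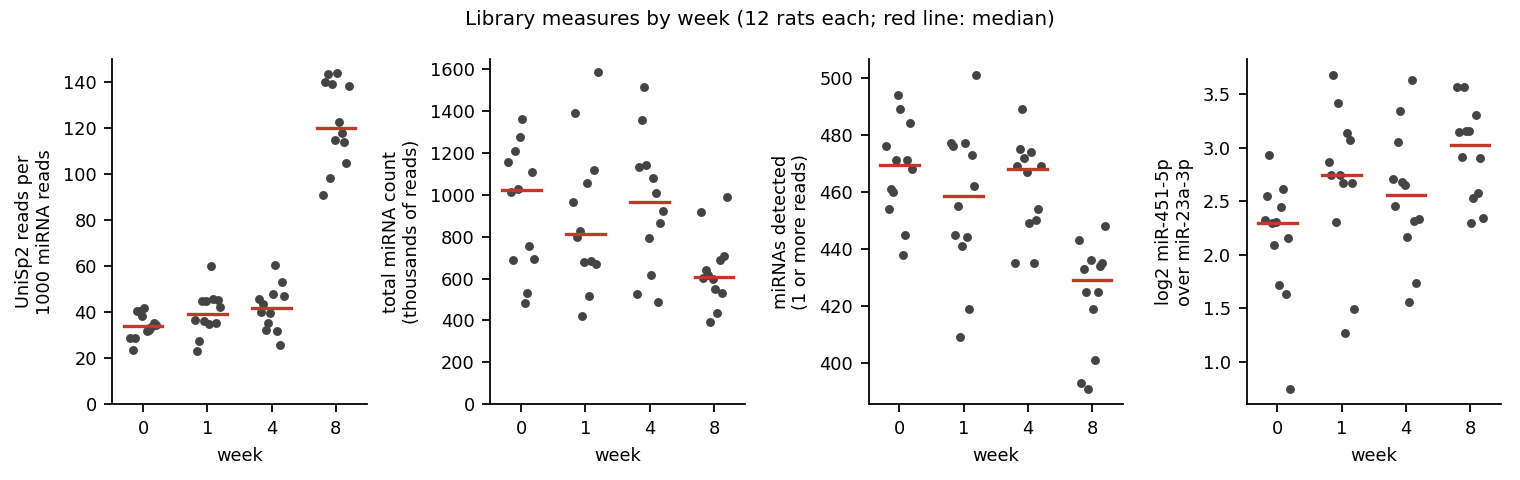
Reads of the UniSp2 spike-in for each 1000 miRNA reads, total miRNA count, number of miRNAs detected and the log2 ratio of miR-451-5p to miR-23a-3p, by week, with 1 point per rat (12 per week) and the median as a red line. UniSp2 at week 8 (91.1 to 143.9) lies above all samples of the other weeks, while the other 3 measures overlap.

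In share of reads, the largest gain was that of miR-451-5p, the erythrocyte miRNA that is processed without Dicer. It held 5.98 to 13.6% of the miRNA reads at week 4 (median 9.49%) and 11.5 to 19.5% at week 8 (median 15.6%). It was higher in 12 of 12 rats with overlapping ranges (1.70-fold, FDR = 1.77e-08). miR-19b-3p, of the miR-17-92 cluster, rose from a median of 3.55 to 5.26% without overlap (1.61-fold, FDR = 9.73e-07). miR-26a-5p rose from a median of 1.20% (0.807 to 1.97%) to 2.60% (2.35 to 4.31%), miR-103-3p from 0.797 to 1.57% and miR-93-5p from 2.31 to 3.15%. The weeks were separate for miR-26a-5p (2.14-fold, FDR = 5.72e-14) and miR-103-3p (2.02-fold, FDR = 5.8e-12), and overlapped for miR-93-5p (1.38-fold, FDR = 0.00169).

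The largest loss in share was that of miR-21-5p, a miRNA found in most cells and raised by injury and inflammation. It held 2.72 to 6.73% of reads at week 4 (median 4.55%) and 1.28 to 4.12% at week 8 (median 2.40%), lower in 12 of 12 rats (1.85-fold lower, FDR = 5.71e-10). miR-140-3p, known from cartilage, fell from a median of 5.04 to 2.99% (1.58-fold lower, FDR = 3.06e-06), miR-150-5p of lymphocytes from 1.74 to 0.756% (2.54-fold lower, FDR = 4.39e-18), and miR-29a-3p from 2.25 to 1.09% (1.79-fold lower, FDR = 6.02e-09). Of the 10 most abundant miRNAs, 5 did not pass the test. miR-16-5p had medians of 10.2 and 8.97% (FDR = 0.0784), miR-486 of 8.37 and 7.94% (FDR = 0.709), and miR-191a-5p of 6.01 and 4.99% (FDR = 0.279). miR-92a-3p (3.98 and 4.64%, FDR = 0.0916) and miR-25-3p (3.82 and 4.57%, FDR = 0.0671) were higher in 10 of 12 rats each.

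Both arms of a hairpin often changed unequally. Of 76 hairpins with both arms at a mean of at least 10 RPM, 19 had arms called in opposite directions, or 25%, with 13 of them lower in the 5p arm and higher in the 3p arm and 6 the other way. Another 12 had both arms called in the same direction (5 higher, 7 lower), 30 had only one arm called and 15 none. Across the 76 hairpins the changes of the arms had a Pearson r of -0.12, given as a description, since the points share libraries. The log2 changes of the arms differed by 0.88 in the median hairpin. With scaling to UniSp2 no hairpin had opposite calls, while the ratio of the arms within a sample does not depend on the scaling of the library.

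The hairpin with the widest gap was miR-361. Its 5p arm was 2.75 to 8.05 times as abundant as the 3p arm at week 4 (median 6.51) and 0.262 to 1.83 times at week 8 (median 0.626). No sample of week 8 reached the week 4 range, and the more abundant arm changed from 5p to 3p in the median sample. Medians at weeks 0 and 1 were 5.58 and 4.84. For miR-199a the ratio went the other way, from 0.108 to 0.793 at week 4 (median 0.339) to 1.11 to 6.07 at week 8 (median 2.16), as the 5p arm rose (median 350.0 to 533 RPM, 1.48-fold, FDR = 0.0033) while the 3p arm fell. The call of the 5p arm was lost in the fit over all 48 samples (FDR = 0.0788) and with the filter filterByExpr (FDR = 0.053). The medians of this ratio were 0.347 and 0.562 at weeks 0 and 1.

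For miR-142, a hairpin of blood cells, the 5p arm fell from a median of 4183 to 1507 RPM (2.70-fold lower, FDR = 3.3e-19) and the 3p arm rose from 466 to 1030 RPM (2.14-fold, FDR = 6.39e-11). The ratio of the 5p to the 3p arm was 5.31 to 13.2 at week 4 and 0.857 to 2.49 at week 8. miR-99b-5p fell from a median of 213 to 86.6 RPM (2.93-fold lower, FDR = 4.79e-15) and miR-99b-3p rose from 31.8 to 45.7 RPM (1.61-fold, FDR = 0.00565). miR-532-5p rose from a median of 776 to 1479.8 RPM (1.95-fold, FDR = 6.02e-09) against the fall of its 3p arm given above, so that the ratio moved from a median of 15.2 to 84.7. miR-30d-3p rose to a median of 30.5 RPM (2.14-fold, FDR = 0.000155) while its 5p arm fell. The ratios did not overlap between the weeks for 17 of the 76 hairpins (22.4%), those of miR-361, miR-199a, miR-142, miR-99b and miR-532 among them, whereas those of miR-30d did overlap.

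**Figure D4:**
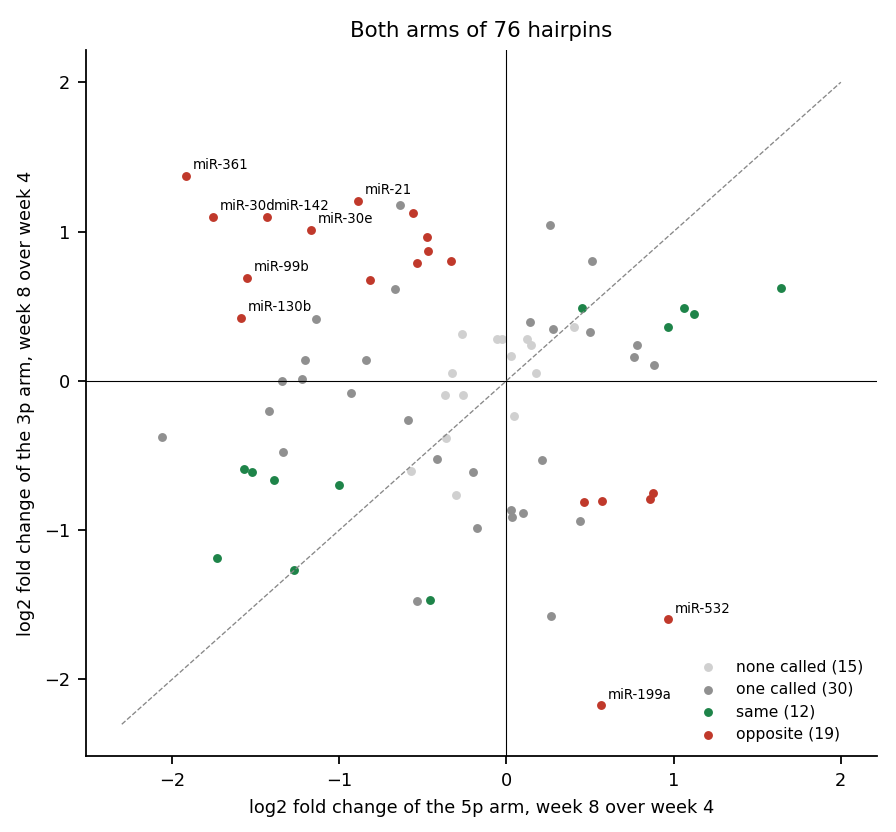
Log2 fold change of the 5p arm (x axis) against that of the 3p arm (y axis), week 8 over week 4, for 76 hairpins with both arms at a mean of at least 10 RPM. Red points (19) have arms called in opposite directions, green points (12) in the same direction, and greys have one arm (30) or none (15) called; the dashed line marks equal change.

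Families with a shared seed moved together in some cases and not in others. Among abundant miRNAs with a sequence, 33 seeds were shared by 2 or more, 91 miRNAs in all. Of these families, 18 had 2 or more calls, and calls went in both directions within 5 of them. All members rose in 3 families and all fell in 7, while 2 families had no call. Among the 7 is the family with seed UAUACAA, whose 2 members share their whole mature sequence and had identical counts in all samples. Its members are therefore a single measurement under 2 names, and their shared fall does not show relatives moving together. They were counted as 2 miRNAs here and in the totals above. The median span between the lowest and the highest member was 0.81 on the log2 scale.

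The miR-34 family, seed GGCAGUG in the sequences above, had the widest span, 3.33 on the log2 scale. miR-34a-5p fell from a median of 294 RPM (163 to 407) to 192 RPM (93.2 to 302) in 10 of 12 rats (1.73-fold lower, FDR = 2.92e-05). miR-34c-5p rose from a median of 70.3 RPM (37.8 to 138) to 127 RPM (45.8 to 203) in 10 of 12 rats (1.67-fold, FDR = 0.000425). miR-449a-5p, at medians of 31.2 and 39.1 RPM, was not called (FDR = 0.134). miR-34b-5p and miR-34c-5p, neighbours on chromosome 8, differ by 2 substitutions counted from the 5' end (A11G and U23C), and both rose.

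In the let-7 family of 9, let-7g-5p and let-7i-5p fell and the other 7 were not called. let-7i-5p, the most abundant, went from a median of 12629 RPM (10574 to 21088) to 6821 RPM (3340 to 10043), without overlap (2.10-fold lower, FDR = 1.91e-12). let-7f-5p had medians of 1507 and 1637 RPM (FDR = 0.667) and let-7c-5p of 826 and 714 RPM (FDR = 0.243). let-7a-5p, named after its values were seen, and let-7g-5p differ by G12U and U18C, and their log2 changes were 0.19 and -1.81. Summed, the family held 1.57 to 3.70% of reads at week 4 and 0.616 to 1.71% at week 8.

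miR-29a-3p and miR-29c-3p differ by one base (C10U), and were called in opposite directions. miR-29c-3p rose from a median of 3146 RPM (1946 to 4120) to 4168 RPM (2740 to 5785) in 10 of 12 rats (1.35-fold, FDR = 0.00793), while miR-29a-3p fell as given above. miR-29b-3p fell from a median of 229 to 96.3 RPM (2.16-fold lower, FDR = 1.22e-08). This was the only opposite call among 47 pairs of abundant relatives with equal length, the same seed and at most 3 substitutions. In 11 of these pairs both miRNAs were called in the same direction, and the median distance between the changes of a pair was 0.50 on the log2 scale. The 11 include the pair with seed UAUACAA, whose sequences and counts are identical, so that its shared direction is no separate observation. The authors' mapping to miRBase allowed a mismatch, and how it divided reads between such near-identical miRNAs is not stated, so their single values carry that uncertainty.

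In the miR-30 and miR-181 families all calls were in one direction. All 5 members of the miR-30 family fell, from miR-30a-5p (median 8816 to 6948 RPM, 1.26-fold lower, FDR = 0.04) to miR-30d-5p. The call of miR-30a-5p was lost with RLE scaling (FDR = 0.0673), without the filter (FDR = 0.0521) and without rat 3, 6, 7 or 21 (FDR from 0.0598 to 0.0753), leaving 4 of 5. miR-30b-5p and miR-30e-5p fell 2.32-fold (FDR = 1.33e-11) and 2.25-fold (FDR = 2.01e-12), both without overlap, and miR-30c-5p fell 1.73-fold (FDR = 7.05e-06). All 4 members of the miR-181 family rose, with miR-181a-5p from a median of 7894 to 11098 RPM (1.42-fold, FDR = 0.000776), miR-181b-5p from 2015 to 3228 RPM (1.73-fold, FDR = 4.78e-07) and miR-181d-5p from 1038 to 1947 RPM (2.03-fold, FDR = 2.59e-10). In the miR-15/16 family 1 of 7 rose and 4 fell, among these 4 miR-503-5p, whose seed (AGCAGCG) differs in its last base from that of miR-16-5p (AGCAGCA). miR-497-5p rose 1.65-fold (FDR = 2.9e-05), miR-15b-5p fell 2.42-fold (FDR = 3.85e-12), and miR-15a-5p was not called (medians 7624 and 8931 RPM, FDR = 0.102).

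**Figure D5:**
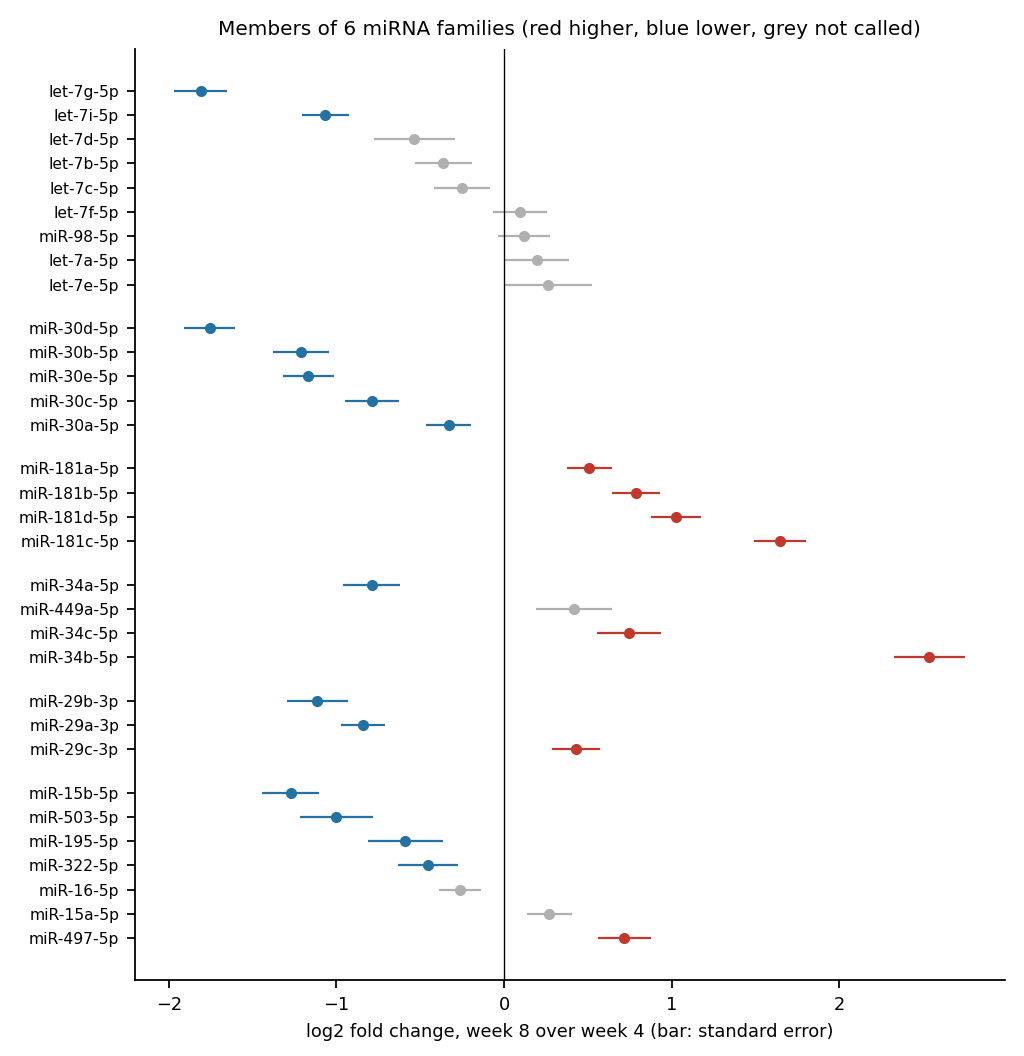
Log2 fold change of week 8 over week 4 for the members of the let-7, miR-30, miR-181, miR-34, miR-29 and miR-15/16 families (red called higher, blue lower, grey not called). Bars are the standard error of the fit, which shares the spread between miRNAs. The miR-30 members lie all below 0 and the miR-181 members all above it, while miR-34, miR-29 and miR-15/16 hold calls in both directions.

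The first base of the mature miRNA, a feature no rule used, was compared as a description, with no test of a difference. Of the 278 abundant miRNAs with a sequence, 64 rose (23.02%) and 89 fell (32.01%), with a median log2 change of -0.09. Of the 115 that began with U, 17 rose and 50 fell (median -0.32, quartiles -0.85 and 0.19). Of the 84 that began with A, 23 rose and 19 fell (median 0.20, quartiles -0.47 and 0.50). Among the 55 that began with C, 16 rose and 16 fell (median -0.06), and among the 24 that began with G, 8 rose and 4 fell (median 0.16). The quartiles of these groups overlapped. Shares of all miRNA reads were summed over the 582 miRNAs of any level with a sequence. Reads of the others entered no group, among them miR-486 (medians of 8.37 and 7.94% at weeks 4 and 8), so each share is a lower bound. Those that began with U held 44.8 to 53.9% at week 4 (median 49.6%) and 36.3 to 48.4% at week 8 (median 42.8%), lower in 12 of 12 rats. Those that began with A held 14.3 to 20.7% at week 4 (median 17.6%) and 21.9 to 30.6% at week 8 (median 25.7%), higher in 12 of 12 rats and without overlap. The share of those with A was 17.7% in the median sample of week 0 and 17.8% in that of week 1. Shares of reads weigh abundant miRNAs most. miR-451-5p, which begins with A, alone held a median of 9.49% at week 4 and 15.6% at week 8, much of the gain of its group. The GC content of the miRNA had a Spearman rho of 0.05 with its log2 change and its length one of 0.12 (across 278 miRNAs that share the libraries, as a description).

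Marker miRNAs of blood cells did not move as whole lists, against 73 of 308 abundant miRNAs that rose and 101 of 308 that fell. Of 8 red blood cell miRNAs, 3 rose, 1 fell and 4 were not called. miR-144-5p rose from a median of 933 to 1572 RPM (log2 0.86, FDR = 1.54e-07) and miR-144-3p of the same hairpin fell from 4532 to 2264 RPM (log2 -0.79, FDR = 4.16e-07) (both named after their values were seen). Together the 8 held 30.1 to 48.4% of reads at week 4 and 35.6 to 48.3% at week 8, higher in 10 of 12 rats, and none was at 0. The log2 ratio of miR-451-5p to miR-23a-3p, a usual measure of haemolysis, was 1.56 to 3.64 at week 4 (median 2.55) and 2.30 to 3.57 at week 8 (median 3.03), higher in 10 of 12 rats (mean difference 0.40 ± 0.46 SD, exact permutation p = 0.0122, adjusted 0.0203). With miR-486 in place of miR-451-5p the difference was -0.43 (exact permutation p = 0.0347), and with miR-103-3p in place of miR-23a-3p it was -0.25 (exact permutation p = 0.0366), so its direction depended on the pair of miRNAs. The part of haemolysis in the changes was not tested.

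Of 8 platelet miRNAs, 4 fell, 1 rose and 3 were not called. miR-24-3p fell from a median of 11023 RPM (6123 to 18924) to 3874 RPM (2604 to 5659), without overlap (2.70-fold lower, FDR = 9.07e-21). miR-126a-3p, shared with endothelium, rose 1.31-fold (FDR = 0.0137), and miR-223-3p, at medians of 13500.3 and 13077 RPM, was not called (FDR = 0.603). Summed, the 8 held 11.1 to 16.4% at week 4 and 6.95 to 12.8% at week 8, lower in 11 of 12 rats. Of 10 leukocyte miRNAs, 5 fell, 2 rose (miR-142-3p and miR-155-5p) and 3 were not called. miR-342-3p fell 1.92-fold (FDR = 4.15e-10), and miR-155-5p, raised in activated immune cells, rose from a median of 438 to 904 RPM in 12 of 12 rats (log2 1.05, FDR = 4.25e-10, named after its values were seen). Fewer cells of a type and less RNA from each cell cannot be told apart in plasma.

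Tissue lists are read against the 73 of 308 abundant miRNAs that rose and the 101 of 308 that fell. Of 8 liver miRNAs, 4 fell and none rose. The list holds miR-194-5p and miR-148a-3p without their partner arms. Those arms, looked up after their values were seen, both rose (log2 1.18 for miR-194-3p and 0.57 for miR-148a-5p). miR-192-5p fell from a median of 9738 RPM (6670 to 10899.7) to 3783 RPM (2922 to 9928) in 12 of 12 rats (2.20-fold lower, FDR = 6.14e-14), and miR-148a-3p fell 1.75-fold (FDR = 1.66e-07). miR-802-5p, a hepatic miRNA the study singles out, had medians of 437 and 428 RPM (FDR = 0.429). The list's summed share was lower in 12 of 12 rats, with a median of 1.76% at week 4 and 0.742% at week 8. Of 6 vessel wall miRNAs, 4 rose and none fell. Among the 4, miR-145-3p was higher in only 6 of 12 rats (log2 0.45, FDR = 0.0409). The summed share of this list was higher in 8 of 12 rats, with medians of 2.39 and 2.95%. Its highest week 8 library was at 8.70%. miR-143-3p, which is made from the same transcript as miR-145, was not called (medians 7827 and 6754 RPM, FDR = 0.604), and miR-126a-5p was not called either (FDR = 0.436).

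Of 8 muscle miRNAs, 4 fell and none rose. Among the 4, miR-206-3p (FDR = 0.00697) and miR-499-5p (FDR = 0.00443) had means of 7.29 and 5.88 RPM, below the 10 RPM of the abundant miRNAs. miR-208a-3p (1.11 RPM) and miR-208b-3p (9.04 RPM) were below it too and were not called, so that the share among abundant miRNAs is no matched background. miR-133a-3p, by far the most abundant of the 8 and singled out by the study, was at 952 to 9270 RPM at week 4 (median 1906) and 835 to 7745 RPM at week 8 (median 2136), with no call (FDR = 0.485). miR-1-3p fell 1.62-fold (FDR = 0.0142) and miR-133a-5p 1.79-fold (FDR = 0.0306), each in 9 of 12 rats, and miR-133b-3p was not called (FDR = 0.613). The falls of miR-1-3p and miR-133a-5p lost their call without the rat as a block (FDR = 0.0979 and 0.191), with DESeq2 (FDR = 0.0658 and 0.076), with limma-voom (FDR = 0.0692 and 0.0814) and without some single rats. Without rat 21, for example, the FDR was 0.107 and 0.154. Of 8 epithelial miRNAs, 3 fell and none rose, a share of falls near that of all abundant miRNAs. miR-203a-3p (medians 8542 and 9571 RPM, FDR = 0.413), miR-205 (FDR = 0.953) and miR-429 (FDR = 0.886) were not called, and miR-200a-3p fell 2.10-fold (FDR = 7.78e-10). The 4 arms of the miR-183 cluster, known from sensory epithelium, gave no call, with miR-183-5p at medians of 109 and 97.2 RPM (FDR = 0.604) and miR-182 at 80.4 and 71.4 RPM (FDR = 0.366). miR-96-5p (FDR = 0.452) and miR-183-3p (FDR = 0.195) were at medians under 10 RPM.

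Of 4 cartilage miRNAs, 3 fell and none rose, against the same 101 of 308 that fell among abundant miRNAs. miR-140-5p fell from a median of 272 to 102 RPM (2.62-fold lower, FDR = 1.49e-12, 12 of 12 rats), and miR-455-5p, singled out by the study, from 314 RPM (247 to 589) to 166 RPM (106 to 291) in 10 of 12 rats (1.90-fold lower, FDR = 7.16e-07). miR-455-3p had medians of 1522 and 1441 RPM (FDR = 0.692). Of the 4 mesenchyme miRNAs, miR-199a-3p and miR-214-3p fell, miR-199a-5p rose and miR-214-5p, at a median of 0 in both weeks, was not tested. Of 4 endocrine miRNAs, miR-375-3p of islets rose from a median of 2146 RPM (1143 to 2909) to 2893 RPM (1685 to 6491) in 10 of 12 rats (1.48-fold, FDR = 0.000411) and miR-7a-5p fell 1.85-fold (FDR = 0.00069). miR-7b was at a median of 0, and miR-375-5p is not listed in the counts.

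Members of a genomic cluster are cut from shared transcripts. Some clusters held calls in both directions and others did not. Beside these counts, 15.6% of all tested miRNAs rose and 24.6% fell, and of the 308 abundant ones 73 rose and 101 fell. Of 12 miRNAs of the miR-322 cluster, 6 fell and 1 rose. miR-322-3p fell from a median of 1119 RPM (748 to 1462) to 363 RPM (238 to 638), without overlap (2.76-fold lower, FDR = 2.46e-17), and miR-322-5p fell 1.37-fold (FDR = 0.0317), a call lost without rat 6 or rat 21 (FDR = 0.0655 and 0.0688). miR-450a-5p rose 1.62-fold in 9 of 12 rats (FDR = 0.000118), and miR-351-5p was not called (FDR = 0.679). Of 11 miRNAs of the miR-17-92 cluster, 3 rose and 4 fell, with miR-17-5p lower (1.38-fold, FDR = 0.00862) and miR-19a-3p not called (FDR = 0.372). The summed share of this cluster was higher in 12 of 12 rats, with medians of 8.45 and 10.9%. Of 6 in the miR-106b/25 cluster, 1 rose and 2 fell, and miR-106b-3p (FDR = 0.96) and miR-25-5p (FDR = 0.585) were not called.

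Of 10 miRNAs of the miR-23/27/24 clusters, 4 rose and 2 fell. miR-23a-3p rose 1.28-fold (FDR = 0.0193) and miR-27a-3p fell 1.68-fold (FDR = 8.22e-07), and miR-27b-3p was not called (FDR = 0.565). In the group of miR-125 and miR-99/100, 4 of 5 fell, with miR-125b-5p at 2.54-fold lower (FDR = 4.26e-13), miR-125a-5p at 2.53-fold lower (FDR = 5.22e-15) and miR-99a-5p at 1.47-fold lower (FDR = 0.000406). miR-100-5p was not called (FDR = 0.429). In the imprinted Dlk1-Dio3 cluster, 31 of 38 members were tested, of which 9 fell and none rose, with a median log2 change of -0.70. This share of falls was near the 24.6% of all tested miRNAs that fell. miR-382-5p (medians 49.3 and 49.8 RPM, FDR = 0.613), miR-487b-3p (FDR = 0.495) and miR-136-3p (FDR = 0.256) were not called. The members of this cluster were low, and together held 0.0184 to 0.115% of reads.

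The step was present in both regeneration groups, which are separate animals. In the 6 strong regenerators, 125 of 424 tested miRNAs were called (29.5%), 45 higher and 80 lower, and in the 6 weak regenerators 167 of 400 (41.8%), 66 higher and 101 lower. Called in both groups in the same direction were 102 miRNAs, which is 81.6% of the calls in strong and 61.1% of those in weak regenerators, and none was called in opposite directions. Across the 308 abundant miRNAs, the log2 changes of both groups had a Pearson r of 0.84, as a description, since the groups shared the time points and any batch. UniSp2 was higher at week 8 in 6 of 6 strong and 6 of 6 weak regenerators (exact permutation p = 0.0312 in each, the smallest 6 rats allow).

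A test of the difference between the groups themselves (the interaction of week and regeneration group) called 3 of 614 tested miRNAs (0.489%), with 30 at an unadjusted p under 0.05. In each of the 3, named after their values were seen, weak regenerators fell and strong ones were not called. miR-196a-5p, from the Hox gene clusters, had medians of 86.9 RPM at week 4 and 21.7 RPM at week 8 in weak regenerators, lower in 6 of 6, and of 64.0 and 78.0 RPM in strong ones, higher in 3 of 6 (difference of the log2 changes 1.89 ± 0.41 SE, FDR = 0.00137). miR-203b-3p had medians of 19.1 and 2.11 RPM in weak and 16.8 and 12.3 RPM in strong regenerators (difference 2.497 ± 0.64 SE, FDR = 0.0182). miR-708-5p had medians of 32.2 and 6.98 RPM in weak regenerators, lower in 5 of 6, and of 12.4 and 27.6 RPM in strong ones (difference 2.58 ± 0.50 SE, FDR = 0.000185). All 3 were at low levels, and DESeq2, the edgeR 4 method and limma-voom called no miRNA in this test. By the study's counts, the scaffold alone was present only among strong regenerators, and the plasmid scaffold was mostly among weak ones. A difference between these groups therefore cannot be told apart from treatment.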

How the data were processed

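Plasma small RNA of 12 rats at 4 time points gave 48 libraries. The authors trimmed (cutadapt 3.3), checked (FastQC 0.11.9, MultiQC 1.10) and mapped reads (Bowtie 1.3.0, miRDeep2), and deposited raw counts for 645 miRNAs and 3 UniSp spike-ins. The study's methods name the rat genome, while the submitters' processing notes list a human build. Counts were tested as deposited in R 4.3.3 with edgeR 4.0.16 (quasi-likelihood method of edgeR 3, TMM factors, rat as a block, two-sided) after a filter at a mean of 0.477 RPM. The 24 libraries compared held 393259 to 1514610 miRNA reads, whose number limits precision for counting error only. Week 4 and week 8 samples were paired because they come from the same animal (deviations from the week means correlated at a mean of 0.08 within a rat and -0.01 between rats). Within week 4 and within week 8, no sample was a copy of another (chi-square for each degree of freedom from 26.3 to 480.6 over 132 pairs).

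Named miRNAs were the 12 largest rises and 12 largest falls (FDR under 0.05, mean of at least 10 RPM, 10 or more rats agreeing), the 10 most abundant, the 5 largest gains and losses, the top 4 of each of 23 lists (all members of lists of up to 5), the arms of 6 hairpins with opposite calls, and 4 miRNAs the study singles out. Members and lists were chosen with earlier results of these data known. The sequence of some named miRNAs is not shown here. Arm ratios and log2 values of single rats used a pseudocount of 1 RPM. The fit was tested on simulated data. Alternatives used DESeq2 1.42.0 and limma 3.58.1. Tables and plots used Python 3.11.15 with numpy 2.4.6, pandas 2.3.3, scipy 1.17.1 and matplotlib 3.10.9.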

Additional observations from a re-analysis of the deposited data

Results flagged for a closer look

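In 3 miRNAs the change from week 4 to week 8 differed between strong and weak regenerators in the test of that difference (edgeR, with the log2 change in strong minus that in weak regenerators). The differences were 2.58 for miR-708-5p, 1.89 for miR-196a-5p and 2.497 for miR-203b-3p. miR-708-5p and miR-196a-5p stayed called in each of 12 fits that left out one rat, with the FDR of both at 0.0342 without rat 23. miR-203b-3p was called in 8 of 12, with an FDR of 0.204 without rat 21. With DESeq2 the adjusted p was 0.0699 for miR-708-5p and miR-196a-5p and 0.133 for miR-203b-3p. Treatment also differed between the strong and weak regenerators, as given above.

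Among the 6 weak regenerators, the log2 change of miR-708-5p in rat 6 was 1.56, while the other 5 rats had changes between -3.51 and -2.56. Its gap to the others took 0.813 of the whole range, above Dixon's critical value at the 95% level for 6 samples. Of 16 sets of 6 rats examined in this way it was the only one beyond that value, and chance passes it in about 1 in 20.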

How the results depend on the processing

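Without the rat as a block, 208 miRNAs were called instead of 199, and the paired fit changed no count by more than 1.5 times. Scaling to UniSp2 gave 414 calls, 1 higher and 413 lower, 377 of them over 2-fold and 0 hairpins with arms in opposite directions, since it moves all changes down by 1.59 on the log2 scale. The stricter filter filterByExpr left 60 calls over 2-fold instead of 95. Other scalings, filters and tools (RLE, library size, all 48 samples, no filter, the edgeR 4 method, DESeq2 and limma-voom) gave between 187 and 224 calls. The split moved from 77 higher and 122 lower to 93 and 107 with RLE, 94 and 105 with DESeq2, and 113 and 111 with limma-voom. Leaving out one rat gave 180 to 201 calls, 71 to 81 higher, 104 to 121 lower, 82 to 100 over 2-fold and 17 to 21 hairpins with opposite arms.

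The test of a difference between regeneration groups gave 6 calls with library size scaling, 0 with DESeq2 (20 at an unadjusted p under 0.05), 0 with the edgeR 4 method and 0 with limma-voom (these last 2 chosen after seeing the data), and 2 to 8 without one rat. The cause was not tested. In the strong regenerators alone the differences were -0.37 for the log2 total count (exact permutation p = 0.312), -28.0 for miRNAs detected (p = 0.0625, exact permutation) and 0.25 for the haemolysis ratio (exact permutation p = 0.375). The total count was -0.72 in weak regenerators (exact permutation p = 0.0625), with 6 rats in each. The share of the 20 most abundant miRNAs passed the test (2.22 percentage points, exact permutation p = 0.0229), and that of the 10 most abundant ranged from 1.995 to 3.37 without one rat, passing without rat 23 and without rat 26. The haemolysis ratio was -0.43 with miR-486 and -0.25 with miR-103-3p. Without one rat, UniSp2 ranged from 1.52 to 1.62, the total count from -0.67 to -0.45, miRNAs detected from -42.1 to -34.0 and the haemolysis ratio from 0.33 to 0.47.

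Of 109 named miRNAs, 75 were called, and 70 of these kept call and direction under 21 alternatives, which leave out UniSp2 scaling. The other 5 (miR-1-3p, miR-133a-5p, miR-199a-5p, miR-322-5p and miR-30a-5p) lost the call under one or more of the 21, and none turned direction in them. Under UniSp2 scaling, 29 of the 32 named rises had a change below 0, and none of the 43 named falls had one above 0. Of the 34 not called, 6 were called under one or more. The edgeR 3 method shares the spread strongly between miRNAs (571 prior degrees of freedom, against 20.7 for the edgeR 4 method), which bears on the size of SE and FDR values. Where the changes of a miRNA varied more between rats than this shared spread, its SE and FDR are too small.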

Other observations

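Other miRNAs with large changes fell outside the naming rule, since fewer than 10 of 12 rats showed the direction (chosen after their values were seen). miR-190a-5p was at a median of 5.23 RPM at week 4 and 12.2 RPM at week 8, with one week 8 library at 271 RPM (log2 1.94, higher in 9 of 12 rats). miR-9a-5p, of the nervous system, had medians of 21.2 and 31.2 RPM with one week 8 library at 1500.1 RPM (log2 1.29, higher in 7 of 12 rats). miR-134-5p of the Dlk1-Dio3 cluster had medians of 18.6 and 5.24 RPM (log2 -1.58, lower in 9 of 12 rats).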
